A study of Homo sapiens with 6 samples.

Results

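The miR-29 family was followed in HuccT1 cells that had or had not been given TGF-β. HuccT1, also written HuCCT1, is an established human cholangiocarcinoma (CCA) cell line, that is, a line from a cancer of the bile duct epithelium. Members were chosen by name: the 5 mature miRNAs hsa-miR-29a-3p, hsa-miR-29b-3p, hsa-miR-29c-3p, hsa-miR-29a-5p and hsa-miR-29b-1-5p, of 2555 human miRNA probes on the array. The study looked for miRNAs that respond to TGF-β during epithelial-mesenchymal transition (EMT). Over 72 h the cells received TGF-β at 10 ng/ml or none (0 ng/ml, control), and total RNA was labelled with Cy5 and read on a Toray 3D-Gene chip, with 3 arrays per group. The labels name no other treatment or genetic change, and all arrays came from this 1 line. The labels do not say whether the 3 arrays of a group came from separate cultures, so the p-values measure only the spread between these arrays, which may be technical.

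The miR-29 miRNAs bind messenger RNAs of collagens, elastin, fibrillin and other extracellular matrix proteins and reduce their translation, and they are widely described as antifibrotic. In fibroblasts and hepatic stellate cells, TGF-β lowers miR-29 through SMAD signalling, which relieves the restraint on collagen production. Each precursor hairpin is cut into a pair of arms, of which the 3p arm is the one that usually acts, while the 5p arm is mostly degraded. No collagen or other messenger RNA was measured on these arrays.

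The 3p arms are shown because the family is defined by what they share. Capitals mark the seed, bases 2 to 8 from the 5′ end, which does most of the target recognition. The sequences are those of RefSeq for GRCh38.p14, written 5′ to 3′.
hsa-miR-29a-3p: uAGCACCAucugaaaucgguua
hsa-miR-29b-3p: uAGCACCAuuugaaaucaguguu
hsa-miR-29c-3p: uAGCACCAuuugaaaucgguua
The seed AGCACCA was found in 3 of the 2370 mature human miRNA names of the RefSeq table, and these were the 3 members above. Counted from 1 at the 5′ end of the first-named miRNA, hsa-miR-29a-3p and hsa-miR-29c-3p differed at 1 of 22 bases, C10U. hsa-miR-29a-3p and hsa-miR-29b-3p differed at 4 of 22 aligned bases, C10U, G18A, U21G and A22U, and hsa-miR-29b-3p had 1 further base at its end. hsa-miR-29c-3p and hsa-miR-29b-3p were identical over their first 17 bases. A labelled miRNA could therefore bind to the probe of another member, which was not tested on these arrays.

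The 5p arms come from the other side of the same hairpins and are shown because their seeds, again in capitals, differ from that of the 3p arms and from each other.
hsa-miR-29a-5p: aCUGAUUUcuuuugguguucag
hsa-miR-29b-1-5p: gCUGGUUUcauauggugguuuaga
Both of these arms are encoded on chromosome 7 together with their 3p partners. In GRCh38.p14, on the minus strand, hsa-miR-29a-3p lies at chr7:130876748-130876769 in MIR29A and hsa-miR-29a-5p at chr7:130876786-130876807. MIR29B1, with 648 bases between it and MIR29A, holds hsa-miR-29b-3p at chr7:130877467-130877489 and hsa-miR-29b-1-5p at chr7:130877507-130877530. No other gene of the RefSeq table overlapped these hairpins. The second locus, also on the minus strand, is on chromosome 1, where hsa-miR-29c-3p lies at chr1:207801865-207801886 in MIR29C and the same hsa-miR-29b-3p sequence at chr1:207802450-207802472 in MIR29B2, with 503 bases between the hairpins. Both hairpins lie within the long noncoding RNA gene MIR29B2CHG, chr1:207801518-207822703, and the table does not say whether in its exons or introns. The signal of hsa-miR-29b-3p is thus the sum of what both loci give and cannot be divided between them.

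A probe was called detected when its spot exceeded the average of the array's 229 blank spots by more than 2 SD of those spots. The arrays detected 327 to 464 human probes each. A total of 323 miRNAs were expressed, meaning that every array of one group or the other detected them, and 292 were detected on all 6. Normalized signals are spot brightness above the blank spots, scaled so that the median of those 292 miRNAs was 25 on each array. One chip carried the 3 controls together with TGF-β array 1, and another carried TGF-β arrays 2 and 3. Of the epithelial marker miRNAs, 6 of the 7 on the array were expressed (hsa-miR-200a-3p, hsa-miR-200b-3p, hsa-miR-200c-3p, hsa-miR-141-3p, hsa-miR-429 and hsa-miR-205-5p). None of the 5 fibroblast and smooth muscle markers, the 4 striated muscle markers, the hepatocyte marker hsa-miR-122-5p or the endothelial marker hsa-miR-126-3p was detected on any array. Of the 6 blood markers, hsa-miR-223-3p was detected on 1 array, TGF-β array 3, at 6.44 SD above the blank spots. As these were bulk RNA samples, fewer cells carrying a miRNA and less of it per cell cannot be told apart.

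The 3 mature 3p sequences of the family were detected in control and TGF-β-treated cells, and none of them passed the test for a change. hsa-miR-29a-3p was higher on each TGF-β array than on any control array, at a ratio of 1.28. Groups without overlap, in either direction, were seen for 32 of the 323 expressed miRNAs (9.91%). In the authors' own normalized values the groups overlapped for hsa-miR-29a-3p, at a ratio of 1.05. hsa-miR-29b-3p and hsa-miR-29c-3p had ratios of 1.01 and 0.961. The 5p arms were at or close to the level of the blank spots.

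hsa-miR-29a-3p, encoded on chromosome 7 alone, had normalized signals of 250.2, 263 and 278 on control arrays 1 to 3. On TGF-β arrays 1 to 3 the signals were 309, 293 and 411. Thus the lowest TGF-β array lay above the highest control array, and TGF-β array 3 was the highest of the 6. The means were 264 ± 13.8 and 338 ± 63.8 (SD, n = 3 each). The log2 change was 0.34 (SE 0.20, 95% confidence interval -0.12 to 0.80, which is 0.923- to 1.74-fold), with limma's adjusted p = 0.87 over the 323 expressed miRNAs. The exact permutation test gave p = 0.10, the smallest that 3 against 3 arrays allow. Groups without overlap were seen for 32 of the 323 expressed miRNAs (9.91%), and among the 3 expressed members for 1. A lower log2 change than that of hsa-miR-29a-3p was found for 86.4% of the expressed miRNAs, whose median change was 0.01. Without TGF-β array 3 the log2 change of hsa-miR-29a-3p was 0.15. On the chip that held both groups, with TGF-β array 1 only, it was 0.16. With the chip as a block it was 0.23, which again compares only TGF-β array 1 with the controls. The part of the chip in the change thus cannot be fully told apart from that of TGF-β. The scanner's local background was brighter than the spot of hsa-miR-29a-3p on control arrays 1 and 2, and its part in the result was not tested. It was also brighter for 16.1% and 28.5% of the expressed probes on those arrays, and for 3.41% to 28.5% over all 6. What this background measures is not clear.

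In the authors' own normalized values, where each array was scaled on whichever probes it had detected, the groups were not separate for hsa-miR-29a-3p. The control values were 659.6, 381.6 and 503.9, and the TGF-β values 413.8, 648.1 and 562.2. The groups overlapped, with means of 515 ± 139 and 541 ± 119 (SD, n = 3 each), a ratio of 1.05 and an exact permutation p of 0.80. In those values the median log2 change of all tested miRNAs was -0.27, against 0.01 here. Relative to the median of all tested miRNAs, the log2 change of hsa-miR-29a-3p was 0.35 in the authors' values, 0.20 with quantile normalization and 0.33 here. A single factor per array cannot move this relative value.

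hsa-miR-29b-3p, which both clusters encode, had normalized signals of 39.4, 38.0 and 71.4 on control arrays 1 to 3 and of 34.7, 31.4 and 84.4 on TGF-β arrays 1 to 3. Array 3 was the highest of its group on both sides, and the control signals lay within the range of the TGF-β signals. The means were 49.6 ± 18.9 and 50.2 ± 29.7 (SD, n = 3 each). The ratio of 1.01 and the log2 change of -0.07 (SE 0.41, 95% confidence interval -1.02 to 0.87, or 0.494- to 1.83-fold) differ in direction, since the first compares means of signals and the second means of their logarithms. Limma's adjusted p was 0.99 and the exact permutation p 0.80. The interval does not exclude a fall or a rise of the size the study used as its limits, 0.67 and 1.5. In the authors' values hsa-miR-29b-3p was at 103.9, 55.4 and 129.4 in controls and 46.4, 69.5 and 115.6 after TGF-β, a ratio of 0.802 with an exact permutation p of 0.60. Without control array 3 the log2 change was 0.22, and without TGF-β array 3 it was -0.57 with a ratio of 0.643. On the chip that held both groups, and so with TGF-β array 1 only, the log2 change of hsa-miR-29b-3p was -0.52. With the chip as a block, which makes the same comparison, it was -0.45. The local background was brighter than its spot on control arrays 1 and 2 and TGF-β array 2, none of them an array 3, and this was not tested further.

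In the scaling used here, but not in the authors' values, hsa-miR-29c-3p was the steadiest of the 3 among the controls relative to its mean. It has a promoter apart from that of hsa-miR-29a-3p. Its normalized signals were 35.4, 34.1 and 33.8 on control arrays 1 to 3, and 34.8, 27.2 and 37.3 after TGF-β. The treated arrays lay on both sides of the controls. The means were 34.4 ± 0.880 and 33.1 ± 5.23 (SD, n = 3 each), and the log2 change was -0.07 (SE 0.19, 95% confidence interval -0.51 to 0.37, or 0.701- to 1.29-fold). Limma's adjusted p was 0.99 and the exact permutation p 0.90. With this scaling the interval ended inside both limits of 0.67 and 1.5, but the authors' values gave a wider spread. There hsa-miR-29c-3p was at 93.5, 49.7 and 61.3 in controls and 46.6, 60.3 and 51.1 after TGF-β, a ratio of 0.773 (log2 change -0.33, SE 0.48, exact permutation p = 0.40). With scaling on the 75th percentile the log2 change was -0.18 (SE 0.19), and without TGF-β array 3 it was -0.21 (SE 0.18). The log2 change was -0.06 on the chip that held both groups. The local background was below the spot of hsa-miR-29c-3p on all 6 arrays.

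**Figure D1:**
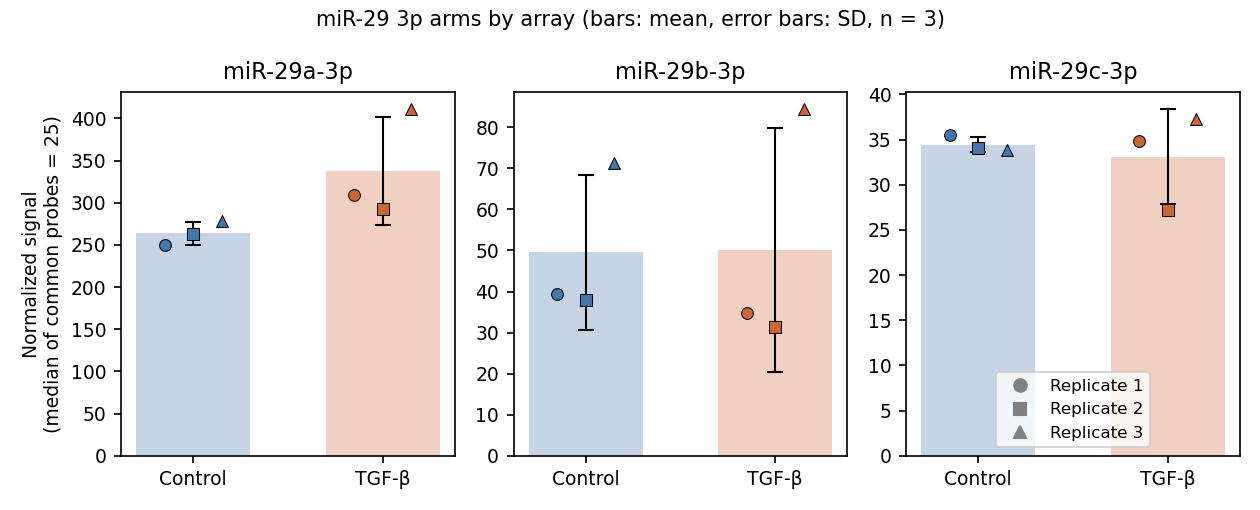
Normalized signal (vertical axes, linear, from 0, with a separate scale for each miRNA) of the 3 miR-29 3p arms in control and TGF-β-treated HuccT1 cells; points are single arrays with their replicate number, bars are means and error bars SDs of 3 arrays. The hsa-miR-29a-3p points do not overlap between groups (250.2 to 278 and 293 to 411), whereas those of hsa-miR-29b-3p and hsa-miR-29c-3p do.

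The members were read against all expressed miRNAs. With an adjusted p under 0.05, limma called 0 of 323 (0%), of which 0 were members. The lowest adjusted p by limma over all 323 was 0.43, and 21 had an unadjusted p under 0.05. A ratio above 1.5 was found for 15 miRNAs (4.64%) and one below 0.67 for 9 (2.79%), and no miR-29 member was in either set. The log2 changes of hsa-miR-29b-3p and hsa-miR-29c-3p were above those of 34.7% and 35.9% of the expressed miRNAs.

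**Figure D2:**
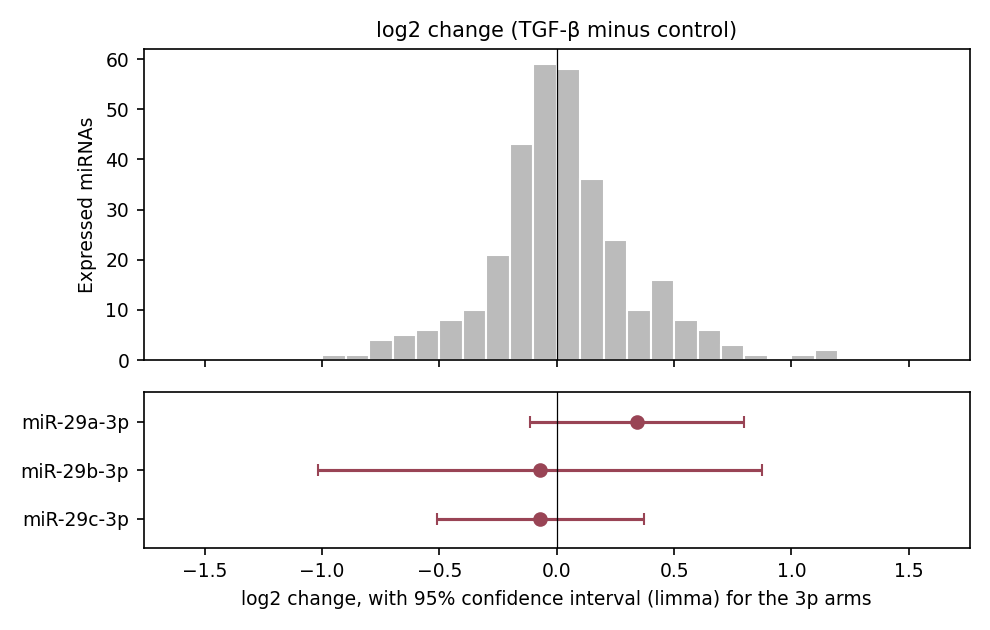
Log2 change, TGF-β over control, of the 323 expressed miRNAs as a histogram, with the 3 miR-29 3p arms and their 95% confidence intervals by limma. hsa-miR-29a-3p at 0.34 lies in the upper part of the distribution, above 86.4% of the miRNAs, and all 3 intervals include 0.

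The 5p arms gave no level that could be compared. hsa-miR-29a-5p was not detected on any of the 6 arrays: its spot was 0.165, -0.979 and -1.32 SD from the mean of the blank spots on control arrays 1 to 3 and -2.34, -1.92 and -0.525 SD on TGF-β arrays 1 to 3. hsa-miR-29b-1-5p was above the detection limit on 2 arrays, control array 1 at 3.56 SD and TGF-β array 2 at 3.15 SD. Its other spots were at 0.497 and -0.859 SD on control arrays 2 and 3 and at 1.16 and 1.83 SD on TGF-β arrays 1 and 3. The detected arrays were thus 1 in each group, and an exact permutation test of the SD units gave p = 0.50. The authors' values listed hsa-miR-29b-1-5p on 3 arrays, at 8.7, 7.3 and 4.9 on control array 1 and TGF-β arrays 2 and 3. The remaining arms of the family on the array, hsa-miR-29b-2-5p and hsa-miR-29c-5p, were not detected on any array and lay between -2.16 and 0.988 SD and between -3.58 and -1.17 SD. By contrast, the spots of hsa-miR-29a-3p were 122 to 281 SD above the blank spots, those of hsa-miR-29b-3p 17.7 to 68.5 and those of hsa-miR-29c-3p 15.9 to 38.8. A probe's brightness depends on its sequence and labelling as well as on its miRNA, so these values say how firmly each was detected and are no ratio of arms.

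**Figure D3:**
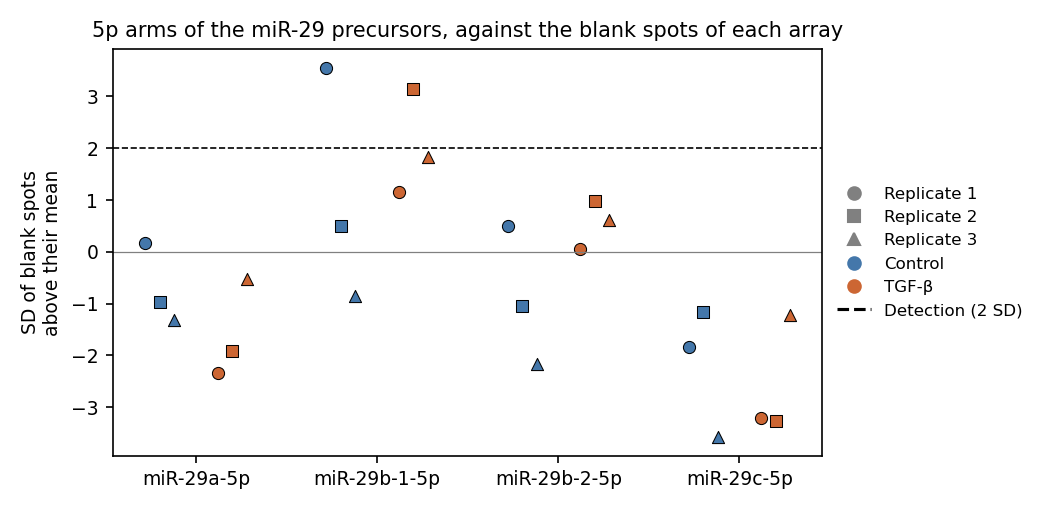
Distance of each 5p arm's spot from the mean of the blank spots of its array, in SDs of the blank spots (vertical axis); points are single arrays and the dashed line is the detection limit of 2 SD. hsa-miR-29b-1-5p passed the limit on 1 array of each group (3.56 and 3.15 SD) and the other 5p arms on none.

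Whether members with the same seed moved by different amounts was asked with differences between members within an array, which a single scaling factor per array cannot alter. The log2 difference hsa-miR-29c-3p minus hsa-miR-29a-3p was -2.82, -2.95 and -3.04 on control arrays 1 to 3 and -3.15, -3.43 and -3.46 on TGF-β arrays 1 to 3. Every TGF-β array lay below every control array, TGF-β array 1 on the controls' own chip included, so that hsa-miR-29c-3p was lower relative to hsa-miR-29a-3p after TGF-β. The size of each difference includes the brightness of its 2 probes, and only its shift between groups is compared. That shift was -0.41 on the log2 scale, from -2.94 ± 0.11 to -3.35 ± 0.17 (SD, n = 3 each), with an exact permutation p of 0.10, the smallest possible, and 0.30 after Benjamini-Hochberg adjustment over the 3 pairs of members. Of all 42486 pairs of miRNAs detected on every array, 4494 (10.6%) had differences without overlap between groups. Among the settings of background and scaling that could move this shift, it was -0.33 with quantile normalization and -0.49 with normexp background. With either of these the groups did not overlap. On each array the authors' values follow a straight line of the same spots that starts close to the blank spots' mean. Their shift of -0.41, also without overlap, was therefore nearly fixed in advance. The chip settings moved it more. On the chip that held both groups the log2 changes were 0.16 for hsa-miR-29a-3p and -0.06 for hsa-miR-29c-3p. With the chip as a block they were 0.23 and 0.017, against 0.34 and -0.07 without it. The other chip held only TGF-β arrays, so both settings compare TGF-β array 1 alone with the controls. They are 1 comparison, differently scaled, and in it the shift was smaller. The part of the chip in the shift cannot be fully told apart from that of TGF-β. For hsa-miR-29a-3p on its own the groups overlapped with quantile normalization, with scaling on the 75th percentile or on an array's own detected probes, and in the authors' values.

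For hsa-miR-29b-3p minus hsa-miR-29a-3p the log2 differences were -2.67, -2.79 and -1.96 without TGF-β and -3.16, -3.22 and -2.28 with it. The groups overlapped through array 3 of each, and the shift of -0.41 had an exact permutation p of 0.40 (adjusted 0.60). For hsa-miR-29c-3p minus hsa-miR-29b-3p the shift was 0.0030 with an exact permutation p of 1.0. These 2 are encoded together on chromosome 1, as hsa-miR-29a-3p and hsa-miR-29b-3p are on chromosome 7. The differences spread widely, at -0.46 ± 0.53 in controls and -0.46 ± 0.63 after TGF-β (SD, n = 3 each). With the chip as a block, again TGF-β array 1 alone against the controls, the log2 changes were 0.017 for hsa-miR-29c-3p and -0.45 for hsa-miR-29b-3p.

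Arrays with the same replicate number had deviations from their group means that correlated weakly, at 0.12, 0.24 and 0.33 for numbers 1 to 3, and the numbers were also used to pair them. Control array 1 correlated best with a TGF-β array of another number, and the labels do not state a pairing. From control to TGF-β, the log2 signal of hsa-miR-29a-3p was higher by 0.31, 0.16 and 0.56 in pairs 1 to 3. The difference in hsa-miR-29b-3p was -0.18, -0.28 and 0.24, and in hsa-miR-29c-3p -0.03, -0.32 and 0.14, so both were lower in 2 pairs and higher in pair 3. Relative to hsa-miR-29a-3p on the same array, both were lower in all 3 pairs, with shifts of -0.49, -0.43 and -0.32 for hsa-miR-29b-3p and of -0.33, -0.48 and -0.42 for hsa-miR-29c-3p. Each of these relative shifts had an exact sign-flip permutation p of 0.25, the smallest that 3 pairs allow.

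**Figure D4:**
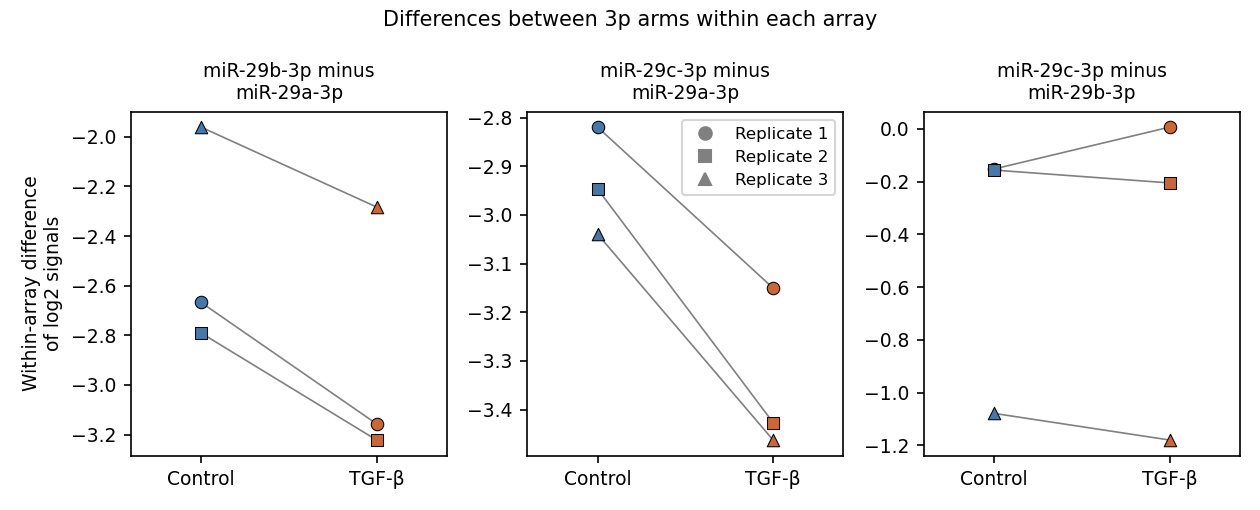
Within-array log2 difference between 2 members (vertical axes, 1 panel for each pair of members) in control and TGF-β arrays; points are arrays and lines join arrays with the same replicate number. In all 3 pairs hsa-miR-29c-3p and hsa-miR-29b-3p were lower relative to hsa-miR-29a-3p after TGF-β, while hsa-miR-29c-3p minus hsa-miR-29b-3p shifted by 0.0030 on average.

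The third arrays had more hsa-miR-29b-3p than the others in both groups, a pattern noticed after the values were seen. Control array 3 was 1.81- and 1.88-fold above control arrays 1 and 2, and TGF-β array 3 was 2.43- and 2.69-fold above TGF-β arrays 1 and 2, although the third arrays lay on different chips. Of the 292 miRNAs detected on all arrays, 42 (14.4%) had array 3 highest in both groups. The same count was 37 (12.7%) for array 1 and 28 (9.59%) for array 2. By the smaller of its log2 leads over the other arrays of a group, 0.86, hsa-miR-29b-3p ranked 4th of the 292, after hsa-miR-4294, hsa-miR-494-3p and hsa-miR-3714 with 1.28, 1.20 and 1.12. The lead of hsa-miR-29a-3p was 0.079, and hsa-miR-29c-3p had none (-0.069). What the replicate numbers mark is not stated in the labels.

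The patterns most like those of the members over the 6 arrays were sought among the other 291 miRNAs detected on all of them. These correlations of log2 signals rest on 6 points and on groups and array scaling that all miRNAs share, and they are descriptions only. For hsa-miR-29a-3p the closest were hsa-miR-31-5p (Pearson's r 0.955), hsa-miR-27a-3p (0.868) and hsa-miR-513a-5p (0.861). hsa-miR-31-5p, an abundant miRNA of many carcinoma lines, had normalized signals of 256, 298 and 290.1 in controls and 329, 315 and 390.2 after TGF-β, again without overlap and with TGF-β array 3 the highest. For hsa-miR-29b-3p the closest were hsa-miR-4667-5p (0.994), hsa-miR-21-5p (0.982) and hsa-miR-494-3p (0.976), each highest on array 3 of both groups. hsa-miR-21-5p, a widely studied profibrotic and oncogenic miRNA, had normalized signals of 669.7, 672 and 856 in controls and 595, 544 and 977 after TGF-β. For hsa-miR-29c-3p the closest were hsa-miR-17-5p (0.894), hsa-miR-31-3p (0.814) and hsa-miR-187-5p (0.782). Members were not each other's nearest: r was 0.582 between hsa-miR-29a-3p and hsa-miR-29b-3p, 0.554 between hsa-miR-29b-3p and hsa-miR-29c-3p, and 0.277 between hsa-miR-29a-3p and hsa-miR-29c-3p, whose sequences differ at 1 base.

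Other miRNAs tied to fibrosis or TGF-β in other cells were read beside the family. Of 17 antifibrotic or TGF-β-repressed miRNAs without miR-29, 13 were expressed, and by limma 0 of these passed an adjusted p of 0.05. Their log2 changes were above 0 for 8 and below 0 for 5, with a median of 0.05. In the authors' values that median was -0.21, where the median of all tested miRNAs was -0.27, so relative to all miRNAs the list was at 0.05 there and at 0.03 here. Of 10 profibrotic or TGF-β-induced miRNAs, 5 were expressed and 5 were not detected on any array, and again 0 passed. Their median log2 change was 0.12, and -0.14 in the authors' values, which relative to all tested miRNAs was 0.11 and 0.13. hsa-miR-181b-5p and hsa-miR-181a-5p, which TGF-β induces in several epithelial cancers, had the highest log2 changes of either list, both 0.77. hsa-miR-181a-5p went from 33.0 ± 2.60 to 56.2 ± 3.38 (SD, n = 3 each) with limma's adjusted p = 0.43. The lowest were hsa-miR-141-3p, an epithelial miRNA of the miR-200 family, at -0.65 (SE 0.46, limma's adjusted p = 0.97) and hsa-miR-30e-5p at -0.41 (SE 0.32, limma's adjusted p = 0.99). The log2 change of hsa-miR-29a-3p, 0.34, and those of hsa-miR-29b-3p and hsa-miR-29c-3p, both -0.07, lay between these extremes. Of the 6 expressed epithelial markers, the log2 changes were above 0 for 4 and below 0 for 2, with a median of 0.088. The other miR-30 miRNAs of the antifibrotic list were at 0.21 (hsa-miR-30b-5p), 0.11 (hsa-miR-30c-5p), 0.045 (hsa-miR-30d-5p) and -0.19 (hsa-miR-30a-5p). The study had picked miR-30e from these arrays by other rules, a fold below 0.67 and a predicted site in Snail. With the scaling used here the ratio of hsa-miR-30e-5p was 0.807, which is not below that limit. The study also reported by qRT-PCR that TGF-β lowered miR-30e in all its CCA lines.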

How the data were processed

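For each array the authors deposited scanner intensity per spot, and a table of normalized intensity values in which the median of the detected probes was set to 25 on each array and undetected probes were left empty. Spots were scanned with the 3D-Gene Scanner and read with its extraction software per the study's methods; versions are not given in the sources used here.

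The average of an array's 229 blank spots was taken from every spot median. Arrays were scaled on the median of the 292 human probes detected on all 6 arrays, and undetected probes received the array's lowest detected value before log2. Failed spots were left out. Expressed miRNAs were tested with limma 3.58.1 in R 4.3.3 (lmFit, eBayes, Benjamini-Hochberg over 323, threshold 0.05). Limma was first tested on simulated data with independent noise and no chip effect, so that trial does not cover the chip difference between these groups. Single values were compared with 2-sided exact permutation tests. The 3 same-numbered pairs of arrays had deviations from the group means that correlated at 0.12, 0.24 and 0.33 over miRNAs, and control arrays 2 and 3, but not control array 1, correlated best with the TGF-β array of their own number. The number of arrays limits the precision.

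The members and lists were chosen with earlier results of these data known. Named miRNAs were the members, the other miR-29 arms, the 3 nearest patterns to each 3p arm, and the 2 highest and 2 lowest log2 changes of the fibrosis lists. Alternatives covered background, scaling, detection, floor, test, block, chip and single arrays.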

Additional observations from a re-analysis of the deposited data

How the results depend on the processing

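The log2 change of hsa-miR-29a-3p was above 0 in 23 of 23 alternatives, from 0.08 in the authors' values to 0.98 without scaling. Alternatives that changed only the filter, the test or the replicate block left it at 0.34 by construction, so their direction was fixed in advance. The others reused the same arrays. Limma's lowest adjusted p among the alternatives was 0.377. Leaving out 1 array gave 0.15 (without TGF-β array 3) to 0.44 (without TGF-β array 2). For hsa-miR-29b-3p the direction turned with normexp background (0.00098) and without scaling (0.57), and leaving out 1 array gave -0.57 to 0.22. For hsa-miR-29c-3p it turned without scaling (0.57) and with the chip as a block (0.017, from TGF-β array 1 alone against the controls). Leaving out 1 array gave -0.21 to 0.065 for hsa-miR-29c-3p. Without scaling the median of all tested miRNAs was itself at 0.66, and the scalings moved that median between this and -0.27. The shift of hsa-miR-29c-3p minus hsa-miR-29b-3p ranged from -0.31 to 0.36 with 1 array left out. The profibrotic list's median was -0.14 in the authors' values, where all tested miRNAs had a median of -0.27; relative to it the list was at 0.13, against 0.11 here. Without a filter all 5 members counted as expressed, by construction. An adjusted p under 0.05 was reached by 1 miRNA (hsa-miR-4521) with the methods' t-test and by 0 to 1 (hsa-miR-629-5p, without TGF-β array 3) with limma with 1 array left out. With the replicate number as a block (replicate block), the log2 changes were 0.34 (SE 0.21), -0.07 (SE 0.21) and -0.07 for hsa-miR-29a-3p, hsa-miR-29b-3p and hsa-miR-29c-3p, limma's adjusted p was 0.64, 0.98 and 0.98, and no call changed. On the chip that held both groups, with 1 TGF-β array, the log2 changes were 0.16, -0.52 and -0.06. Subtracting each spot's local background left a value only for hsa-miR-29c-3p (-0.05), since that background exceeded the spot of hsa-miR-29a-3p on 2 arrays and of hsa-miR-29b-3p on 3.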
